A study of Mus musculus with 6 samples.

Results

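Glycogen synthesis and breakdown in the liver were followed through 8 genes: Ugp2, Pgm1, Gys2, Gbe1, Pygl, Phka2, Ppp1r3b and Ppp1r3c. They were chosen by symbol, from GENCODE M21, among the 20894 genes of a deposited table of estimated RNA-seq counts. All 8 had a row, and 7 of them were among the 10802 genes with enough counts to be tested, while Pgm1 was listed at 0 in every library. The samples were 6 libraries of mouse liver RNA, 3 in each of 2 groups, all from the Irf3LSL-2D strain, and the labels do not say whether each came from a separate mouse. In that strain a stop cassette, which Cre removes, keeps silent an Irf3 allele whose 2D form is made to be constitutively active. IRF3 switches on interferon and other antiviral genes when viral nucleic acid is sensed. The IRF3-2D group received AAV8-TBG-Cre and the Ctrl group AAV8-TBG-GFP. TBG is a promoter active in hepatocytes, so Cre is directed to those cells while RNA came from whole liver. Both groups were given ethanol at 3 g/kg by intraperitoneal injection and were killed 2 h later. No group without ethanol and no group with Cre but without the allele was analysed here, so effects of Cre or GFP and of active IRF3 cannot be told apart. Ages and sexes were not given in the sources used here.

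Glycogen is the liver's store of glucose, filled after a meal and emptied between meals. Glucose 1-phosphate, made by phosphoglucomutase, is activated to UDP-glucose, which glycogen synthase adds to a growing chain and the branching enzyme rearranges into branches. Glycogen phosphorylase, switched on by phosphorylase kinase, releases glucose 1-phosphate again. Glycogen-targeting subunits hold protein phosphatase 1 on the glycogen particle, where it activates the synthase and switches phosphorylase off.

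Across the pathway, the synthase gene Gys2 and the targeting-subunit genes Ppp1r3b and Ppp1r3c were lower in IRF3-2D liver. Levels are counts per 1000000 (CPM) after TMM scaling between libraries. Ppp1r3c fell 4.07-fold, Gys2 fell 2.09-fold and Ppp1r3b fell 1.69-fold, each called by edgeR's quasi-likelihood test at a Benjamini-Hochberg adjusted p under 0.05. The 4 other tested members (Ugp2, Gbe1, Pygl and Phka2) were not called. No member was called higher by edgeR, DESeq2 or limma-voom, while edgeR with library totals in place of TMM called Ugp2, Gbe1 and Phka2 higher. With library totals, 4500 of the 10802 genes tested were called higher and 571 lower, so the share called higher was near that of the members. An unadjusted edgeR p under 0.05 was found for 4 of the 7. The share of all genes at that looser threshold was not counted, so this count cannot be read as particular to the members. At the adjusted p under 0.05, 26.3% of all genes tested were called, 13.1% lower and 13.2% higher. The values of the groups did not overlap for 4 of the 7 members and for 44.9% of all genes tested. The median log2 fold change was -0.45 over the 7 tested members, which is the value of Pygl alone, and 0.03 over all genes tested. With library totals in place of TMM these medians were 0.00 and 0.49. The plot of levels by library shows the values behind these statements.

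**Figure D1:**
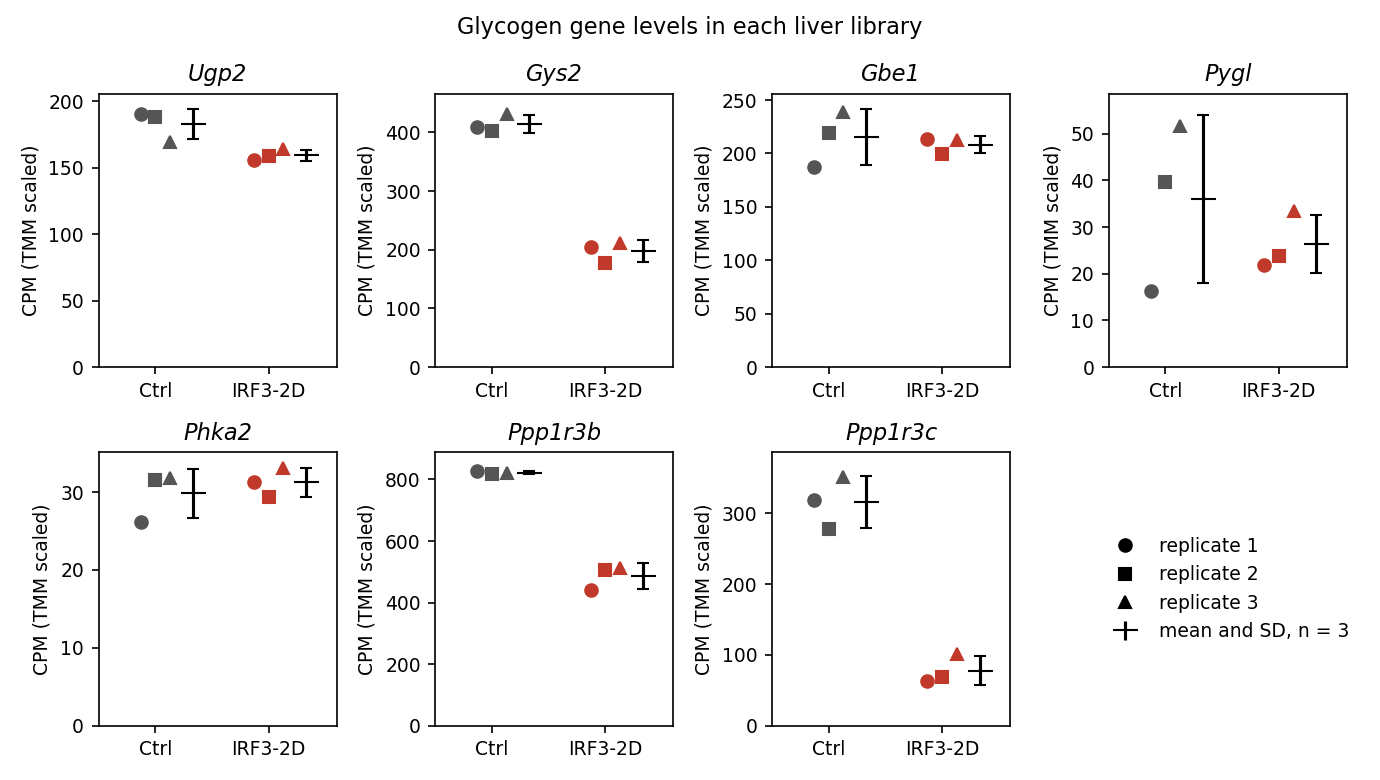
Level of each tested glycogen gene in CPM (scaled by TMM) in the 3 Ctrl (grey) and 3 IRF3-2D (red) libraries; marker shapes are replicates, and the black bar is the mean with its SD (n = 3). Gys2, Ppp1r3b and Ppp1r3c lie well below the Ctrl values in all 3 IRF3-2D libraries, while Gbe1, Pygl and Phka2 overlap between the groups.

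The libraries held 12054096 to 14830629 counts. TMM, a scaling that allows for a few abundant genes taking a larger share of the reads, gave factors between 0.822 and 0.879 for Ctrl libraries and between 1.12 and 1.23 for IRF3-2D libraries. With library totals alone the median log2 fold change of all genes tested was 0.49 instead of 0.03, so the direction of small changes depends on the scaling. Irf3, the gene carried by the allele, stood at 49.8 ± 9.35 CPM in the Ctrl group and at 120.1 ± 15.3 CPM with the active allele (mean ± SD, n = 3), without overlap. Of 9 tested hepatocyte markers 6 were called lower and 1 higher, with a median log2 fold change of -0.71. The summed level of that list was 139800 to 190100 CPM in Ctrl and 76210 to 87680 in IRF3-2D. Most of this sum is Alb alone, which held 12.7%, 8.20% and 9.66% of all counts in Ctrl libraries. In IRF3-2D libraries Alb held 6.23%, 5.66% and 5.92%. Among 9 tested markers of Kupffer cells and other macrophages, 3 rose and no other was called (summed 381 to 423 CPM against 446 to 643). Of 6 tested sinusoidal endothelial markers 3 were called lower (summed 297 to 324 CPM against 206 to 265). The stellate list had 1 of 6 called lower (Pdgfrb was at 0 in all libraries). Both edgeR and limma-voom called 0 of 5 tested cholangiocyte and 4 tested erythroid markers (1 and 0 called by DESeq2). At an unadjusted edgeR p under 0.05 there were 2 and 0, without a share of all genes to set beside them. All 9 hepatocyte markers with a row were detected, as the tissue label calls for. The part of these cell type shifts in the results below was not tested.

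The genes of the first steps of synthesis gave no call. Pgm1, the phosphoglucomutase that interconverts glucose 6-phosphate and glucose 1-phosphate (ENSMUSG00000025791, chr4:99929414-99987294, plus strand), was listed at 0 in all 6 libraries. Some genes that every cell uses, such as Gsk3a, were also listed at 0, so this is a statement about the table only. A deposited value may likewise miss some transcripts of a gene, and of the members only Ppp1r3c has a single annotated transcript.

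Ugp2 makes UDP-glucose from glucose 1-phosphate (ENSMUSG00000001891, chr11:21321138-21371201, minus strand). Its levels were 190.1, 188.2 and 169.5 CPM in Ctrl and 155.8, 158.6 and 163.8 in IRF3-2D. The groups did not overlap, but the gap between the lowest Ctrl and the highest IRF3-2D library was narrow. Its log2 fold change of -0.20 (SE 0.08, edgeR adjusted p = 0.128) did not pass the threshold, although DESeq2 called it lower (-0.22, adjusted p = 0.0404). With library totals alone the direction turned and Ugp2 was called higher (log2 fold change 0.26, edgeR adjusted p = 0.046).

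Gys2, the liver isoform of glycogen synthase, adds glucose to the chain (ENSMUSG00000030244, chr6:142422613-142473109, minus strand). Its levels were 408.8, 402.1 and 431.3 CPM in Ctrl and 204.9, 177.6 and 212.1 CPM in IRF3-2D. Every IRF3-2D library was below every Ctrl library, and both groups were tight around their means. The means were 414 ± 15.3 and 198 ± 18.2 CPM (SD, n = 3 libraries per group). The log2 fold change was -1.06 (SE 0.10, edgeR adjusted p = 0.000467).

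Gbe1 encodes the branching enzyme (ENSMUSG00000022707, chr16:70313949-70569716, plus strand). It stood at 187.3, 219.0 and 239.1 CPM in Ctrl and 213.7, 199.1 and 212.2 in IRF3-2D, where all 3 values lay inside the Ctrl range. The log2 fold change was -0.05 (SE 0.11, edgeR adjusted p = 0.783). It turned to 0.41 and was called higher with library totals alone (edgeR adjusted p = 0.0154).

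Of the genes of breakdown, neither was called. Pygl, the liver isoform of glycogen phosphorylase (ENSMUSG00000021069, chr12:70190811-70231488, minus strand), had the widest spread of the tested members in Ctrl. Its levels were 16.3, 39.7 and 51.7 CPM in Ctrl and 21.8, 23.7 and 33.4 in IRF3-2D. Ctrl replicate 1 was below every IRF3-2D library and the other Ctrl libraries were above all of them. The log2 fold change was -0.45 (SE 0.39, edgeR adjusted p = 0.437). Without Ctrl replicate 1, Pygl was called lower (log2 fold change -0.80, edgeR adjusted p = 0.0435), while without Ctrl replicate 3 the value was near 0 (-0.09, adjusted p = 0.892). Its coefficient of variation between replicates was 50.1% in Ctrl and 23.6% in IRF3-2D, where Ppp1r3c varied more (26.3%). The edgeR estimate of biological variation was higher for Pygl than for 75.1% of genes tested, while the other tested members stood at the 13.7th to 48.8th percentile.

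Phka2 encodes the liver form of the regulatory alpha subunit of phosphorylase kinase (ENSMUSG00000031295, chrX:160502166-160598878, plus strand). It stood at 26.1, 31.5 and 31.8 CPM in Ctrl and 31.3, 29.3 and 33.1 in IRF3-2D. The groups overlapped, with a log2 fold change of 0.07 (SE 0.11, edgeR adjusted p = 0.689). With library totals alone it was called higher (0.52, edgeR adjusted p = 0.00493).

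The targeting subunits of protein phosphatase 1 included the member that changed most. Ppp1r3b encodes the G(L) subunit, known from liver (ENSMUSG00000046794, chr8:35375739-35388139, plus strand). Its Ctrl levels of 827.6, 818.9 and 821.4 CPM were the closest together of all tested members, a coefficient of variation of 0.542%. In IRF3-2D it stood at 439.3, 507.5 and 513.5 CPM. The means were 823 ± 4.46 and 487 ± 41.3 CPM (SD, n = 3 libraries per group), and the log2 fold change was -0.76 (SE 0.09, edgeR adjusted p = 0.00136).

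Ppp1r3c encodes the subunit named protein targeting to glycogen, which also binds glycogen synthase and phosphorylase (ENSMUSG00000067279, chr19:36731731-36736653, minus strand). Its levels were 319.0, 277.8 and 351.7 CPM in Ctrl and 63.5, 68.6 and 101.1 in IRF3-2D. The groups were far apart, and IRF3-2D replicate 3 was the highest of its group. Mean levels were 316 ± 37.0 and 77.7 ± 20.4 CPM (SD, n = 3 libraries per group), which gave a log2 fold change of -2.02 (SE 0.20, edgeR adjusted p = 0.000579). Reads can be placed on it with little doubt, since none of the 31-base words of its single annotated transcript occurs in a transcript of another gene. For the other members at most 2.39% of the words were shared.

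The calls of Gys2, Ppp1r3b and Ppp1r3c held under every alternative tried. With library totals alone their log2 fold changes were -0.61, -0.30 and -1.58 (edgeR adjusted p = 0.00166, 0.0368 and 0.000668), against a median of 0.49 over all genes. In bulk liver, fewer hepatocytes and less of a transcript per hepatocyte cannot be told apart. The fall of these 3 genes went with the lower hepatocyte marker level given above, a sum that is mostly Alb.

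**Figure D2:**
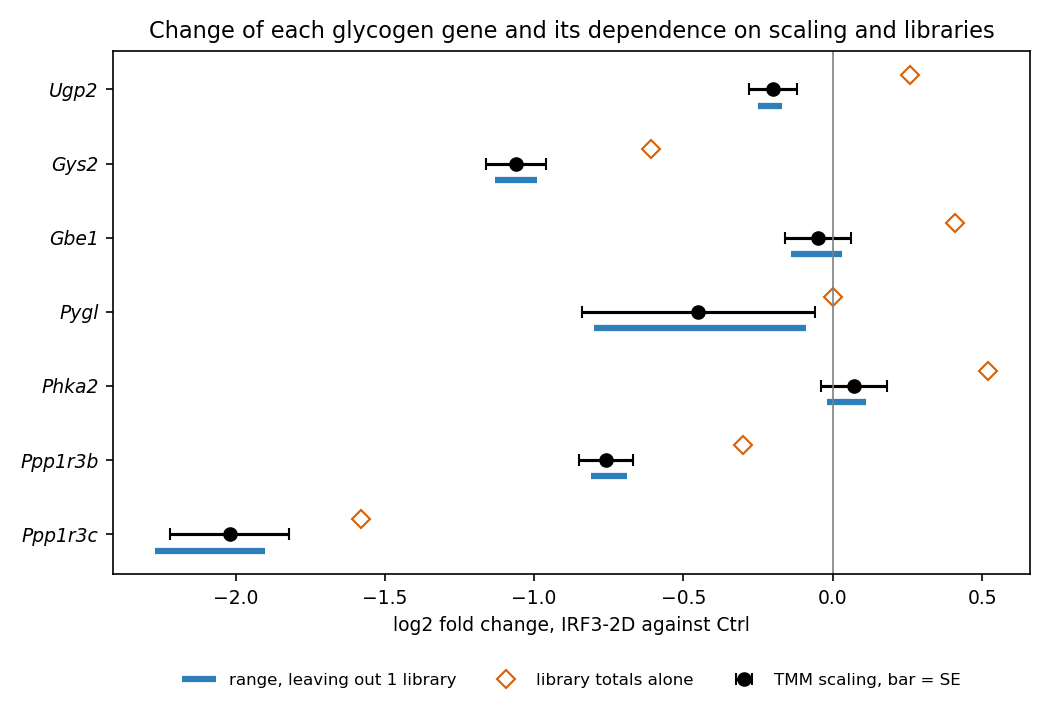
log2 fold change of each tested glycogen gene, IRF3-2D against Ctrl: black points are the edgeR fit with TMM scaling and bars its SE, blue bars the range when 1 library is left out, and open diamonds the fit with library totals alone. Gys2, Ppp1r3b and Ppp1r3c stay below 0 throughout, whereas Ugp2 and Gbe1 lie below 0 with TMM and above 0 with library totals.

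Because the scaling moved the smaller changes, members were also set against each other within a library, where no scaling enters. The log2 ratio of Ppp1r3c to Ppp1r3b counts was -1.38, -1.56 and -1.22 in Ctrl and -2.79, -2.89 and -2.34 in IRF3-2D. The difference of -1.29 means that Ppp1r3c fell 2.44-fold further than Ppp1r3b. The log2 ratio of Gys2 to Gbe1 was 0.95 ± 0.15 in Ctrl libraries and -0.08 ± 0.08 in those of IRF3-2D (SD, n = 3), a difference of -1.03. Synthase counts, not corrected for length, were thus about level with those of the branching enzyme in IRF3-2D and above them in Ctrl. Per kilobase of annotated exons, Gys2 stayed above Gbe1 in IRF3-2D as well (74.6 against 38.9 CPM).

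The log2 ratio of Ppp1r3c to Gys2 differed by -0.98 (-0.40 ± 0.12 in Ctrl and -1.38 ± 0.31 in IRF3-2D). For these 3 ratios the groups did not overlap, and the exact two-sided permutation p was 0.1, the smallest that 3 against 3 libraries allow (adjusted over the 4 ratios, 0.13). The ratio of synthase to phosphorylase, Gys2 to Pygl, overlapped between groups. It was 4.64, 3.34 and 3.06 in Ctrl and 3.23, 2.90 and 2.67 in IRF3-2D (exact permutation p = 0.2).

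**Figure D3:**
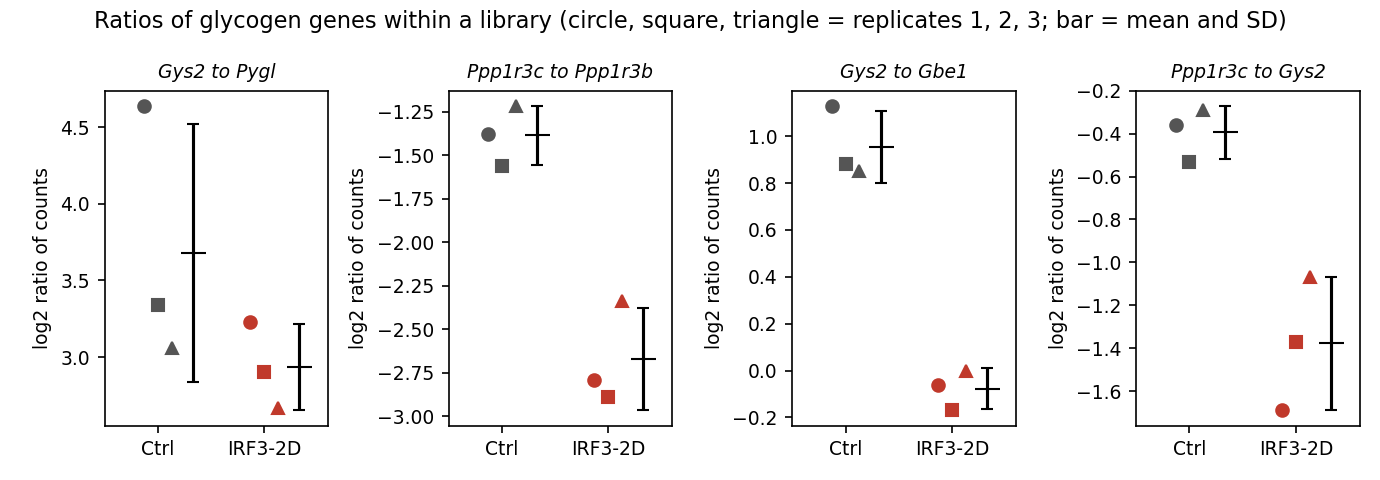
log2 ratio of the counts of 2 glycogen genes in the same library, for Ctrl (grey) and IRF3-2D (red), with marker shapes for replicates and a bar for the mean and SD (n = 3). Ppp1r3c to Ppp1r3b, Gys2 to Gbe1 and Ppp1r3c to Gys2 are lower in all 3 IRF3-2D libraries, and Gys2 to Pygl overlaps.

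Divided by length (CPM per kilobase of annotated exons), Gys2 was highest among the tested members in Ctrl at 155.8 ± 5.77. Ppp1r3b followed at 132 ± 0.717 and Ppp1r3c at 116 ± 13.6 (SD, n = 3 each), and these last differed by little more than the spread of Ppp1r3c. Ugp2 (59.5 ± 3.70) and Gbe1 (40.2 ± 4.88) stood lower, and Pygl (5.21 ± 2.61) and Phka2 (4.92 ± 0.527) did not differ beyond their spread. In IRF3-2D, Ppp1r3b (78.3 ± 6.64) and Gys2 (74.6 ± 6.86) overlapped at the top. Ppp1r3c, at 28.5 ± 7.49, came after Ugp2 (51.9 ± 1.32) and Gbe1 (38.9 ± 1.5), though its highest library nearly reached the lowest of Gbe1. Phka2 (5.15 ± 0.310) and Pygl (3.81 ± 0.899) were last. Dividing by the longest annotated transcript instead put Ppp1r3b first in Ctrl (188 against 155.8 for Gys2) and Pygl above Phka2 in IRF3-2D (8.35 against 7.2). With that length Ppp1r3b also stood clear of Gys2 in IRF3-2D, at 111.0 against 74.6, so the order of these genes depends on the length used.

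The promoter of Ppp1r3c is shown because this gene fell most, beside that of Gbe1, an enzyme gene of the same pathway that was not called. RefSeq promoter sequences on GRCm38.p6 were found for 6 of the 8 members, and not for Gys2 and Ppp1r3b. The stretches printed, on the strand of each gene, are the bases before the RefSeq start that no GENCODE M21 transcript of the gene covers (chr19:36736654-36736854, minus strand, and chr16:70313699-70313948, plus strand). Capitals mark matches to the motifs searched.
Ppp1r3c: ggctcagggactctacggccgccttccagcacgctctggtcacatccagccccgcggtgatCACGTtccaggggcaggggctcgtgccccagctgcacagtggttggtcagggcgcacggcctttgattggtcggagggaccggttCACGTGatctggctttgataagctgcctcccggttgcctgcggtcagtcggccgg
Gbe1: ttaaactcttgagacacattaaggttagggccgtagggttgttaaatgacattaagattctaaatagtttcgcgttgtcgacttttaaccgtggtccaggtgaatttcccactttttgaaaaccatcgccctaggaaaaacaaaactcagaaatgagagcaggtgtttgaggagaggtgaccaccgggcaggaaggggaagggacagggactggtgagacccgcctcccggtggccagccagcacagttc

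Of 7 motifs searched on both strands, the Ppp1r3c window of 250 bases held an E-box (CACGTG, the site of basic helix-loop-helix factors such as those of the clock) from 104 to 99 bases before the start. It also held the hypoxia response core ACGTG, which overlaps that E-box on both strands and occurs again on the opposite strand from 189 to 185 bases before the start. An E-box was found in 6.02% of all 32851 promoter windows of this length, and ACGTG in 16.6%. Both motifs contain the letters CG, which occurred 20 times in the Ppp1r3c window and 9 times in that of Gbe1 (median 6 over all windows). The G and C content was 64.4% and 48.8% (median 52.4%). The part of base composition in these matches was not tested. The Gbe1 window held none of the motifs. The windows of Ugp2, Pgm1 and Pygl held ACGTG as well. The interferon-stimulated response element, searched as GAAA repeated after any 2 bases and present in 2.98% of all windows, was found in none of the members' windows, nor were the FOXO site TGTTTAC (3.17%) and the C/EBP palindrome TTGCGCAA (0.164%). The cAMP response half-site TGACG (17.8%) was found for Pygl and the TATA box TATAAA (12.4%) for Pgm1. These are matches of letters only.

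Beyond the members, 36 other genes of glycogen metabolism and its control were listed, 34 of them present in the table and 24 tested. Here 4 were called higher, 3 lower and 17 were not called, beside 13.2% higher and 13.1% lower over all genes tested, so the share called was near the background. The median log2 fold change was 0.07, and 0.52 with library totals alone. Gyg, which encodes glycogenin, the protein that primes a new glycogen particle, rose 2.22-fold from 7.64 ± 0.924 to 17.0 ± 2.26 CPM (SD, n = 3 each; edgeR adjusted p = 0.00324). Pgm2, a paralog of Pgm1 known to act mainly on pentose phosphates, rose 1.87-fold from 9.82 ± 0.711 to 18.4 ± 2.74 CPM (edgeR adjusted p = 0.00637). Calmodulin is a built-in subunit of phosphorylase kinase. Its genes Calm3 (1.58-fold, edgeR adjusted p = 0.00374) and Calm2 (1.22-fold, adjusted p = 0.0367) were called higher. Calm2 shares 18.1% of its words with other genes, and its call was lost without Ctrl replicate 2 or 3 or any 1 IRF3-2D library (log2 fold change 0.25 to 0.30), and with the replicate block (0.29, edgeR adjusted p = 0.0722).

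Called lower were G6pc and Gaa, of glucose release, and Prkacb, of hormonal control. Prkacb was the only listed subunit gene of its kinase to be called. G6pc, the last enzyme of glucose release, had levels of 3846, 4751 and 4585 CPM in Ctrl and 1516, 1760 and 1809 in IRF3-2D (log2 fold change -1.37, SE 0.12, edgeR adjusted p = 0.000358). Gaa, the acid alpha-glucosidase that digests glycogen in lysosomes, fell 1.63-fold from 71.1 ± 9.39 to 43.7 ± 0.436 CPM (edgeR adjusted p = 0.0036). Its call was lost with library totals alone (log2 fold change -0.25, adjusted p = 0.136). Prkacb, a catalytic subunit of the kinase through which glucagon activates phosphorylase kinase, had a log2 fold change of -0.43 (edgeR adjusted p = 0.045). Leaving out any of 4 libraries ended that call (Ctrl replicate 2, -0.36; Ctrl replicate 3, -0.42; IRF3-2D replicate 1, -0.34; IRF3-2D replicate 2, -0.47), and the direction turned with library totals alone (0.02).

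The partners and paralogs of the members named here gave no further call. The other tested genes of targeting subunits, named after their values were seen, stood higher in IRF3-2D without a call, at lower levels than Ppp1r3b and Ppp1r3c. Ppp1r3g stood at 5.80, 4.12 and 10.47 CPM in Ctrl and 10.67, 18.83 and 10.95 in IRF3-2D, where every library was above every Ctrl library, though by little (log2 fold change 0.98, SE 0.39, edgeR adjusted p = 0.107). Ppp1r3f (log2 fold change 0.80, edgeR adjusted p = 0.321) and Ppp1r3e (0.38, adjusted p = 0.674) overlapped between the groups. Both were near the floor, with 7 to 28 counts per library for Ppp1r3f and 5 to 18 for Ppp1r3e. Ppp1r3f also shares 46.8% of its words with other genes, so its reads are hard to place. The catalytic kinase subunit gene Phkg2 stood at 16.2 ± 1.16 CPM in Ctrl and 16.6 ± 0.934 CPM in IRF3-2D, and the beta subunit gene Phkb at 2.92 ± 1.01 and 4.77 ± 0.655 (SD, n = 3 each; edgeR adjusted p = 0.178). Pygb, the brain isoform of phosphorylase, stood at 12.5 ± 4.79 and 11.04 ± 2.58 CPM. The isoforms known from muscle were near 0. Gys1 had at most 2 counts in a library, Pygm at most 9 and Phka1 at most 13, each in a single Ctrl library. Phkg1 had at most 2 counts. The summed level of 5 skeletal muscle markers was 0.245 to 0.925 CPM in Ctrl and 1.84 to 5.76 CPM in IRF3-2D.

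**Figure D4:**
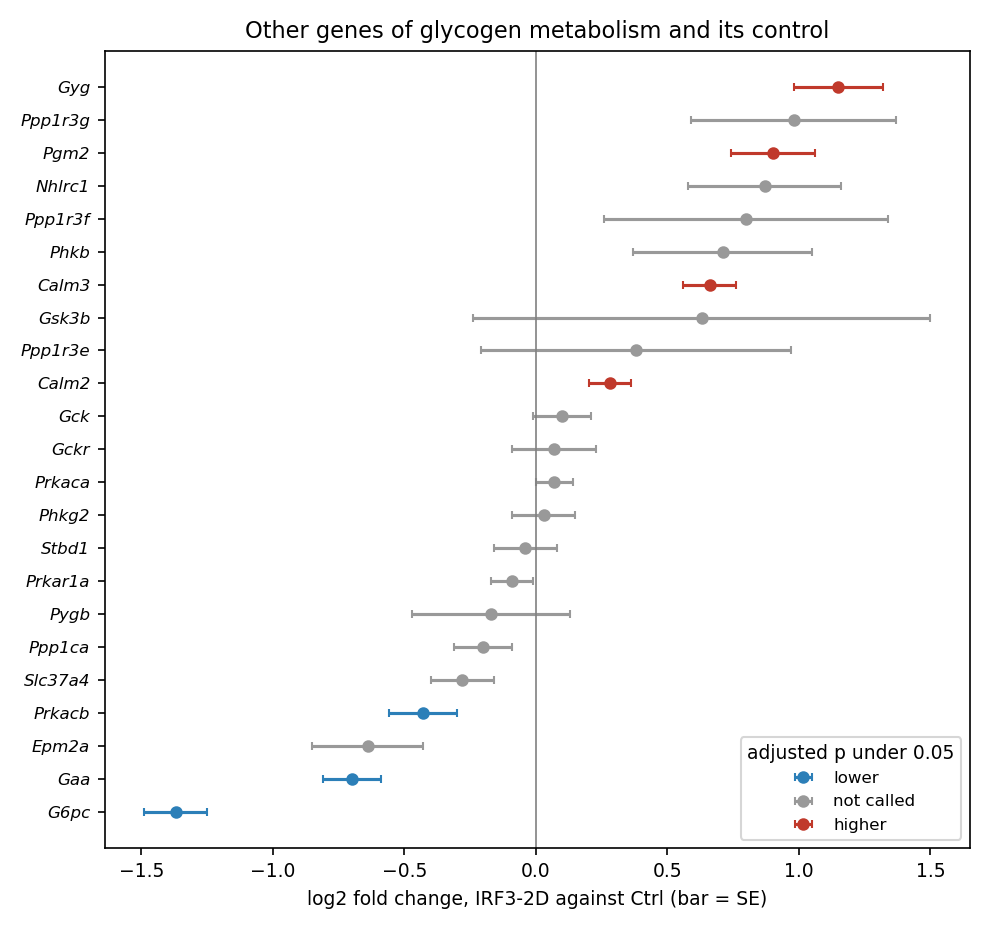
log2 fold change with its SE, IRF3-2D against Ctrl, of 23 tested genes of glycogen metabolism and its control that are not among the 8 members, coloured by the call of edgeR. Gyg (1.15), Pgm2 (0.90), Calm3 (0.66) and Calm2 (0.28) were called higher, and G6pc (-1.37), Gaa (-0.70) and Prkacb (-0.43) lower.

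Among the tested genes, those with profiles closest to Gys2 and Ppp1r3c were sought, leaving out genes without a symbol and predicted genes (Gm and Rik names). The measure was the root mean square difference of log2 CPM over the 6 libraries, after centring each gene on its mean. For Gys2 the closest were Pipox (0.05), Gcdh (0.05) and the mitochondrially encoded mt-Atp6 (0.06), with log2 fold changes of -1.11, -1.03 and -1.04. For Ppp1r3c they were Fads3 (0.09), Slc47a1 (0.11) and Ces1e (0.12), with log2 fold changes of -2.08, -1.93 and -1.98. This is a description over 6 libraries of 2 groups, with no test.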

How the data were processed

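Liver RNA of 6 samples was made into strand-specific libraries after poly-A selection, per the labels' protocols. The values are estimated counts per gene that the authors deposited as whole numbers, without normalization, 1 column per library. The submitters' processing notes name Salmon 1.2.1, GRCm38 and mm10, with no role for any of them. How transcripts were summed to genes, the annotation and any filtering by the authors were not given in the sources used here. Columns were matched to samples by library name. Of 20894 rows, 20817 matched a GENCODE M21 symbol, the unmatched rows (0.022% of counts at most in any library) stayed in, and 5285 rows had no count.

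Counts were filtered by filterByExpr, scaled by TMM and tested on the whole table with edgeR 4.0.16 (R 4.3.3), quasi-likelihood F-test, group as the only term, Benjamini-Hochberg adjustment over 10802 genes, threshold 0.05. Levels are CPM with TMM. An SE is the log2 fold change over the square root of its F statistic. The steps were run on simulated counts with a common dispersion and the same composition in both groups, apart from genes set to change. The difference in scaling between the real groups was not simulated. Totals per library ranged from 12054096 to 14830629, and tested members had 200 (Pygl) to 10510 (Ppp1r3b) counts in a library. Over the whole table, replicates differed by more than counting error (chi-square per degree of freedom 18.9 to 109.7). That measure used library totals without other scaling, abundant genes weigh most in it, and it was not computed for the members. The labels do not say that replicates are separate mice, so p-values reflect the spread among these samples only, possibly a technical one. Alternatives were RLE, upper-quartile and no scaling, DESeq2 1.42.0, limma-voom (limma 3.58.1), other count filters, a replicate block and leaving out each library. Log2 ratios used counts plus 0.5. Named genes were all members, called genes of the list of other glycogen genes, partner subunits and paralogs, Irf3, and the 3 nearest profiles of Gys2 and Ppp1r3c. Members and lists were chosen with earlier results of these data known. Lists of 4 adipocyte markers (2 of 3 tested called lower, summed 20.3 to 27.3 CPM in Ctrl and 11.7 to 13.6 in IRF3-2D) and of 5 T, B and NK cell markers (1 of 2 tested called higher, 2.35 to 4.41 and 7.73 to 10.8 CPM) were also summed. Of the tested genes of the other glycogen list, 1 is counted but not reported singly here. Genes without a row (Pgm2l1, Slc2a2, Stab2 and Tf) were not analysed here.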

Additional observations from a re-analysis of the deposited data

How the results depend on the processing

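Gys2 (log2 fold change -1.13 to -0.61), Ppp1r3b (-0.81 to -0.30) and Ppp1r3c (-2.27 to -1.58) kept direction and call under all 14 alternatives. The number of members called lower was 3, except 4 with DESeq2 (with Ugp2) and without Ctrl replicate 1 (with Pygl), and ranged from 3 to 4 when 1 library was left out. None was called higher except 3 with library totals alone, where Gbe1 (0.41), Ugp2 (0.26) and Pygl (0.00, not called) changed sign, relative to a median of 0.49 over all genes. Values near 0 also changed sign for Gbe1 without Ctrl replicate 3 (0.03) and Phka2 without Ctrl replicate 1 (-0.02), where neither was called; leaving out 1 library gave -0.14 to 0.03 and -0.02 to 0.11. The cause was not tested. Of the other glycogen genes, 14 were higher and 1 lower with library totals alone and 5 lower with DESeq2, against 4 and 3. Calm2 also lost its call with RLE or upper-quartile scaling and without a filter (edgeR adjusted p = 0.0527 to 0.0551), and Prkacb without a filter (0.0586). When 1 library was left out, 3 to 4 were higher and 2 to 4 lower, and without a filter 3 were higher and 2 lower. The log2 ratio of Gys2 to Pygl differed between groups by -1.06 to -0.26 when 1 library was left out (-0.26 without Ctrl replicate 1), those of Ppp1r3c to Ppp1r3b by -1.45 to -1.18, of Gys2 to Gbe1 by -1.08 to -0.94 and of Ppp1r3c to Gys2 by -1.14 to -0.83.

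No pairing of the samples by the replicate numbers in the titles was seen. Deviations from the group means of same-numbered libraries correlated at 0.10, -0.03 and 0.04, and those of other-numbered libraries at -0.10 to 0.06. With 3 libraries per group these values cannot settle whether samples were paired. With the replicate block 3 members were lower and none higher (Gys2 -1.07, Ppp1r3b -0.76, Ppp1r3c -2.05), and over all genes 1038 were higher and 1128 lower, against 1426 and 1418. Over all genes, library totals alone gave 4500 higher and 571 lower, and leaving out 1 library gave 851 to 1312 higher and 920 to 1363 lower. Per-length levels of all tested members other than Gys2 and Ppp1r3c moved by more than 1 SD with the longest transcript as the length. Counting error is largest for genes near 0, such as the muscle isoforms; whether depth sets those values was not tested.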
